A study of Homo sapiens with 29 samples.

Results

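The cell junction genes described here are 47 listed members of the adherens junction, the desmosome, the tight junction, the polarity complexes and the gap junction, of 35579 genes whose transcripts could be summed. They were followed in PC9, an EGFR-mutant human lung adenocarcinoma cell line, through 29 RNA-seq libraries of 10 lines. The parental cells (PAR) carry their own AXL, a receptor tyrosine kinase. All other lines came from cells in which the AXL kinase domain had been targeted with CRISPR-Cas9. The knockout (KO) received no insert, whereas WT received wild-type AXL, KD a kinase-dead AXL, and Y634F, Y643F, Y698F, Y726F, Y750F and Y821F an AXL with 1 intracellular tyrosine changed to phenylalanine. The inserts were delivered by lentivirus and sorted as populations. By the paper's account only a minority of the cells in these transduced lines expressed AXL. Each line was untreated or received 1 µM erlotinib (E), an EGFR kinase inhibitor, or E with 300 ng/mL AF154 (EA), an antibody that activates AXL, and RNA was taken at 24 h. There were 10 untreated, 10 E and 9 EA libraries (KO with EA was not analysed here), that is, 1 library per line and treatment, so the lines served as replicates. In the imaging of the same study, made at 48 h, Y634F, Y750F and Y821F stayed in clustered islands with EA (the clustered lines). In PAR, AF154 undid part of the clustering seen with E, and Y643F, Y698F and Y726F were described as behaving like PAR and WT. PAR, WT, Y643F, Y698F and Y726F are called the dispersing lines here.

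Epithelial cells hold together through junctions built on transmembrane adhesion proteins and cytoplasmic plaques. Cadherins bind across the gap between cells and anchor to actin through catenins, nectins do so through afadin, and desmosomal cadherins anchor to keratin through plakoglobin, plakophilins and desmoplakin. Claudins and occludin seal the tight junction over scaffolds such as ZO-1, and the PAR, Crumbs and Scribble proteins set where along the lateral membrane these structures form. Loss of E-cadherin with gain of N-cadherin is the textbook sign of epithelial cells turning mesenchymal.

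Levels are given in TPM, an estimate of transcript abundance scaled for transcript length and for the library's total, and changes as differences in log2(TPM + 1). Of the 47 genes, 36 averaged at least 10 TPM over the 29 libraries and were tested among 9085 such genes. AXL transcripts lay between 79.3 and 92.4 TPM in the 2 KO libraries and between 217 and 852 TPM in the other lines. Of 12 listed lung epithelial markers, keratins among them, 6 averaged at least 10 TPM. Keratin transcripts were abundant (KRT7 at 3164 to 6468 TPM), whereas NKX2-1, SFTPB, SFTPC and FOXA2 reached at most 0.35, 1.09, 1.97 and 0.35 TPM. The levels of the listed MUC1, NAPSA, FOXA1 and HOPX are not reported here, so these values do not describe the lung lineage as a whole. Of 16 markers of other cell types, 3 averaged at least 10 TPM (TUBB3, COL1A1 and CD68); the summed level of the 16 went from 174 to 236 TPM in the untreated libraries to 260 to 370 TPM with E and 269 to 364 TPM with EA, mostly through these genes, and CD3E was listed at 0 throughout. Their part in the results below was not tested. How many reads stood behind a value cannot be recovered from TPM.

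RefSeq gives start-site windows (GRCh38.p14) for 36 of the 47 genes. The 250 bases before 4 start sites are shown, as a selection. These genes, 3 scaffolds and a claudin, rose with E, and no annotated exon of the gene enters the window. The TJP1 window (chr15:29969050-29969299, minus strand) ends 184 bases upstream of the GENCODE 29 gene, and the CLDN3 window (chr7:73770271-73770520, minus strand) abuts its gene. Those of CGN (chr1:151511137-151511386, plus strand) and AFDN (chr6:167827385-167827634, plus strand) lie in introns, before internal starts. Capitals mark matches to 3 short motifs on either strand, namely the E-box CACCTG that SNAIL and ZEB repressors bind, the grainyhead-like (GRHL) motif AACCNGTT, and the TEAD motif CATTCC.
TJP1: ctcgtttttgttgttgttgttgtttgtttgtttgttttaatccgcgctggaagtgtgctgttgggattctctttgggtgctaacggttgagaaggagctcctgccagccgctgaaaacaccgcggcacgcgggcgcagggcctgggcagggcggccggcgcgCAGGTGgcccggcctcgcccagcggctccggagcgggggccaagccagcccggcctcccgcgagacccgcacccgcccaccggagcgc
CLDN3: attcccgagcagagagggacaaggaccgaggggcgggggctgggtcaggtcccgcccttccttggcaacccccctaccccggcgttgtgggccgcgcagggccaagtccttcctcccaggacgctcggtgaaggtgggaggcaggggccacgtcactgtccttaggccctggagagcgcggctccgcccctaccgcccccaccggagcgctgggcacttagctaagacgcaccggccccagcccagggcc
CGN: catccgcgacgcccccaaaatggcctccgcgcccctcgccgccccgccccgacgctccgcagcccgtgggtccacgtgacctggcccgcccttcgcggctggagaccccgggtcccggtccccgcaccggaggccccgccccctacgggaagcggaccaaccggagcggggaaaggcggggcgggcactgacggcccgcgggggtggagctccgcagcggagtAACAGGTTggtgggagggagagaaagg
AFDN: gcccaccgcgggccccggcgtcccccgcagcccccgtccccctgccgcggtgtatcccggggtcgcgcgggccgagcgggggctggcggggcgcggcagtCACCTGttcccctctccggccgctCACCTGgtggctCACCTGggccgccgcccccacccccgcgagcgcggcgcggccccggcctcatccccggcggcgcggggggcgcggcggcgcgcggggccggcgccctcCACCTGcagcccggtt
The TJP1 window shown held 1 E-box and the AFDN window 4, CGN held 1 GRHL match, and CLDN3 held none of the 3 motifs. No matches overlapped. A further window of TJP1 and 1 window each of CTNNA1, CLDN7, CDH2 and DSC2 met the same conditions but are not shown. They held none of the 3 motifs, nor did the remaining TJP1 windows. Over the 50 windows of these 36 genes, 26% held an E-box, 2% a GRHL match and 4% a TEAD match, against 17.5%, 1.49% and 11.9% of the 35116 windows in the table. The windows of a gene can overlap, and a match is a run of letters, not a bound site.

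Junction transcripts were mostly higher with E than without it. Of the 36 tested genes, 27 rose and 6 fell, and CLDN12, PRKCI and MARVELD2 did not pass (limma with line as a block, 10 lines, Benjamini-Hochberg adjusted p below 0.05). Across all 9085 genes 36.4% rose and 42.6% fell, so the share that rose among junction genes (75%) was above that background and the share that fell (16.7%) below it. Their median change was 0.40, beside -0.04 over all genes tested. The members were chosen with earlier results of these data known, so this excess of rises is a description and not an independent test. In these bulk libraries, a change in how many cells carry a transcript and a change per cell cannot be told apart. The rises were spread over the structures. Of 10 tested adherens junction genes 8 rose and 2 fell, of 8 desmosome genes 6 rose and 2 fell, of 12 tight junction genes 9 rose and 1 fell, and of 6 polarity genes 4 rose and 1 fell. In 14 of the 36 every E library was above every untreated library, and in 3 every E library was below, against 14.9% and 21.6% of all genes.

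**Figure D1:**
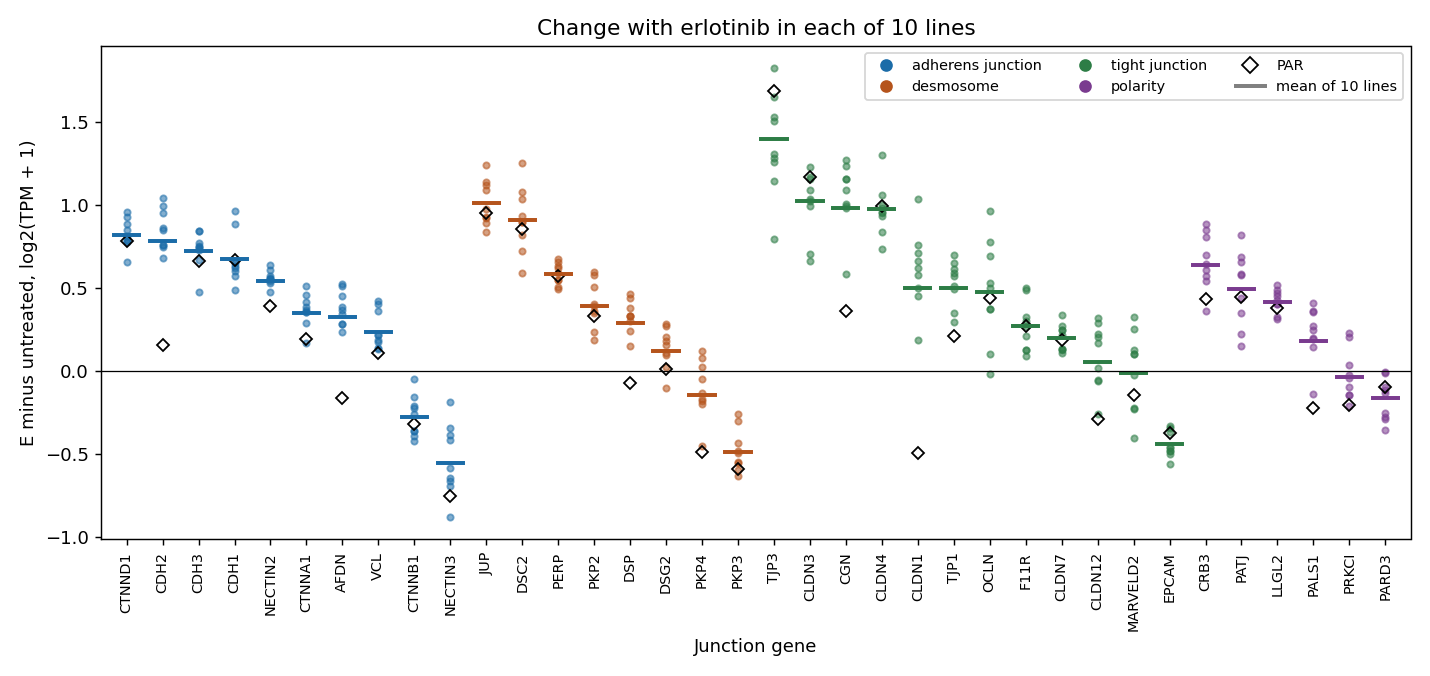
Each point is the change of a gene in 1 line, as E minus untreated in log2(TPM + 1), with the 36 tested genes grouped by structure along the horizontal axis; bars mark the mean of the 10 lines and open diamonds PAR. Most bars sit above 0, with TJP3 highest at 1.40 and NECTIN3 lowest at -0.56, and PAR lies well below the other lines for CDH2, AFDN, CGN and CLDN1.

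Among the classical cadherins, all 3 rose. CDH1 (E-cadherin; chr16:68737225-68835548) lay between 60.8 and 92.9 TPM in the 10 untreated libraries (median 83.1), between 113 and 147 TPM with E (median 131) and between 114 and 173 TPM in the 9 EA libraries (median 139). Every E library exceeded every untreated one, and CDH1 rose by 0.67 ± 0.04 (SE, n = 10 lines, adjusted p = 2.1e-09). CDH3 (P-cadherin), which lies upstream of CDH1 on the same strand with 14608 bases between them, went from 65.7 to 85.8 TPM (median 71.8) to 110 to 136 TPM (median 123), again with no overlap, and rose by 0.72 ± 0.04 (adjusted p = 1.2e-10). CDH2 (N-cadherin) was the least abundant of the 3, at 7.81 to 12.8 TPM untreated (median 11.8) and 10.8 to 27.3 TPM with E (median 21.3). It rose by 0.78 ± 0.08 (adjusted p = 2.4e-07), from 0.68 to 1.04 in 9 lines but by 0.16 in PAR. E-cadherin and N-cadherin transcripts therefore moved the same way. The ratio of CDH1 to CDH2 was 5.10 to 11.7 untreated (median 7.23) and 4.58 to 13.7 with E (median 6.38), ranges that overlapped almost wholly. Paired by line, however, the ratio was lower with E in every line but PAR, because CDH2 rose more than CDH1 there. In KO, for example, CDH1 rose by 0.49 and CDH2 by 0.84, whereas in PAR they rose by 0.67 and 0.16. CDH1 made up a median of 49.7% of the 3 cadherins before and 47.5% after.

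The catenins, which tie cadherins to actin, split. CTNND1 (p120-catenin, which holds cadherins at the membrane) went from 134 to 168 TPM (median 147) to 252 to 283 TPM (median 264) and rose by 0.82 ± 0.03 (adjusted p = 5.6e-12). CTNNA1 (alpha-catenin, the actin link) rose from a median of 48.4 to 63.5 TPM, and its partner VCL (vinculin) from 122 to 144 TPM, each in 10 of 10 lines. CTNNB1 (beta-catenin; chr3:41194741-41260096) went the other way, from 112 to 146 TPM (median 125) to 92.7 to 120 TPM (median 100.1), and fell by 0.28 ± 0.04 (adjusted p = 8.7e-06) in 10 of 10 lines, although the ranges overlapped. JUP (plakoglobin, the close relative of beta-catenin that serves both adherens junctions and desmosomes; chr17:41754604-41786931) lay between 202 and 269 TPM untreated (median 237) and between 451 and 522 TPM with E (median 486). No library overlapped, and JUP rose by 1.01 ± 0.04 (adjusted p = 6.9e-12), a 2.01-fold change on this scale. Within each library the ratio of JUP to CTNNB1 was 1.81 to 2.24 untreated (median 1.89), 4.34 to 5.51 with E (median 4.66) and 3.45 to 4.89 with EA (median 4.42).

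**Figure D2:**
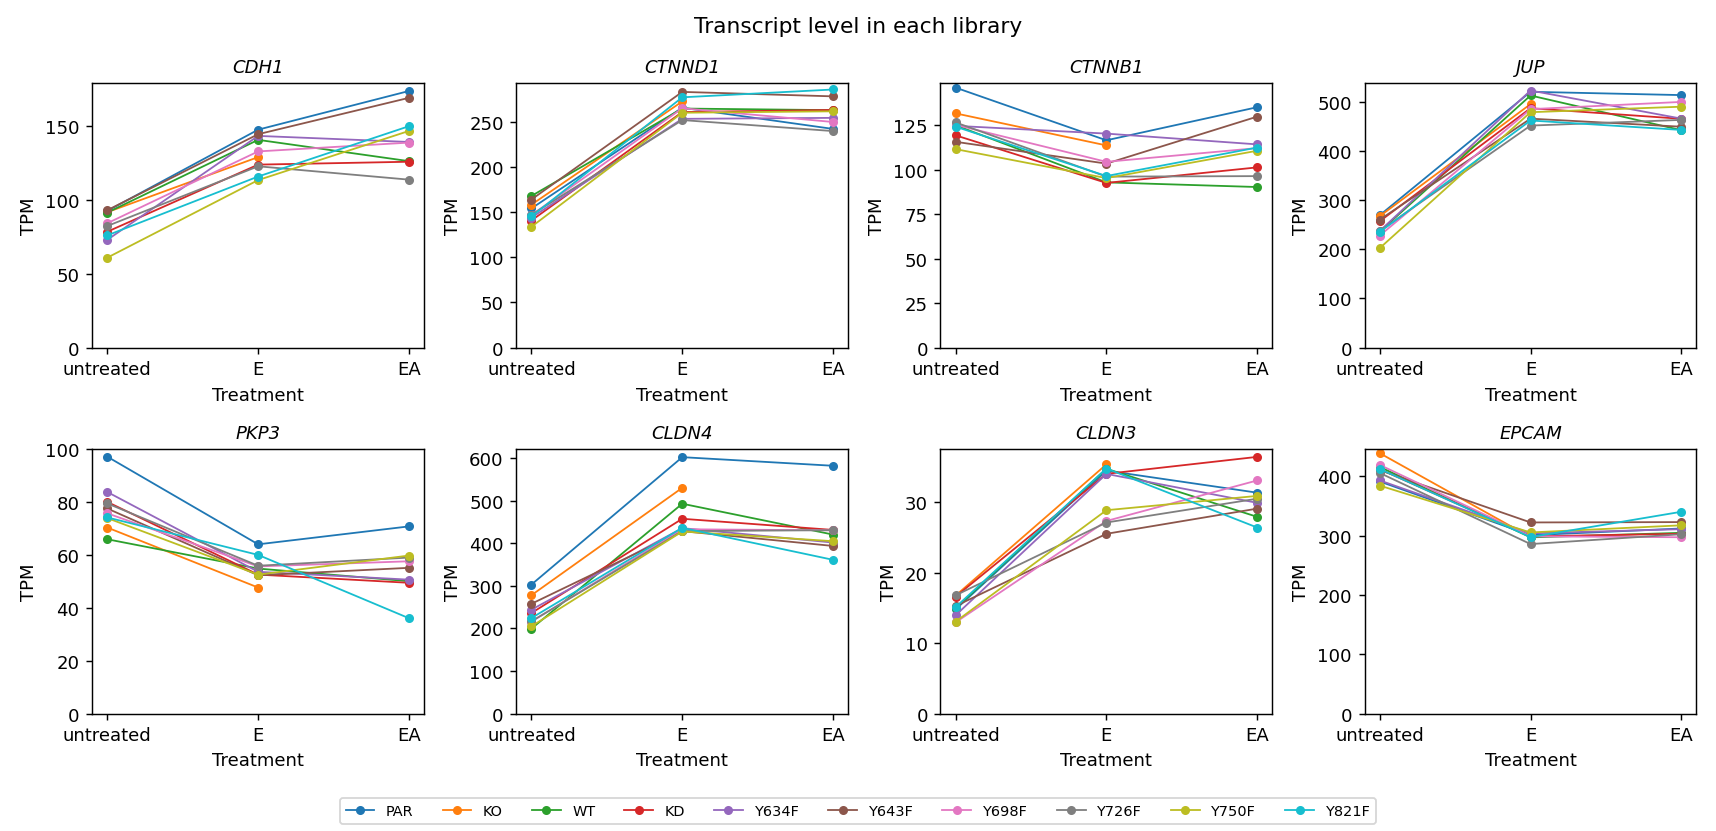
Transcript level in TPM of 8 junction genes by treatment (untreated, E, EA), with 1 coloured line per cell line; KO has no EA point. JUP, CTNND1, CLDN3 and CLDN4 climb with E in each line, and EPCAM and PKP3 drop in each line. For these genes the mean EA minus E step, without KO and KD, lies between -0.11 (CLDN4) and 0.06 (EPCAM) in log2(TPM + 1). CLDN4 is lower with EA in 7 of 8 lines and EPCAM higher in 7 of 8. The PKP3 step in Y821F is large, at -0.72, beyond the fall of PKP3 with E in any line (-0.63 at most).

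The nectins, which start cell contacts beside the cadherins, exchanged places at the lower end. NECTIN2 held the largest part of the 4 nectins and went from 79.4 to 103 TPM (median 86.4) to 119 to 135 TPM (median 127), with no overlap. NECTIN3 went from 21.5 to 28.3 TPM (median 23.4) to 12.7 to 18.7 TPM (median 16.4) and fell by 0.56 ± 0.07 (adjusted p = 2.1e-06). NECTIN1 and NECTIN4 averaged under 10 TPM and were tested only with a minimum mean of 1 TPM. With that minimum 44 of the 47 genes were tested, of which 31 rose and 9 fell, where 35.5% of 14111 genes rose and 36.3% fell. NECTIN1 went from 11.6 to 25.2 TPM (median 12.4) to 4.64 to 8.74 TPM (median 5.46), a fall by 1.12 ± 0.06 (adjusted p = 1.1e-09), whereas NECTIN4 went from 2.10 to 5.29 TPM (median 2.83) to 8.63 to 12.8 TPM (median 9.84), a rise of 1.44 ± 0.09 (adjusted p = 5.8e-09). The ranges of both were apart. As shares of the 4 nectins, the median of NECTIN2 was 67.5% untreated and 79.8% with E, that of NECTIN3 19.5% and 10.5%, that of NECTIN1 10.01% and 3.45%, and that of NECTIN4 2.36% and 6.36%. AFDN (afadin, the actin anchor of the nectins, with the 4 E-boxes above) rose from a median of 52.3 to 65.0 TPM, in 9 of 10 lines, and was 0.17 lower in PAR.

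**Figure D3:**
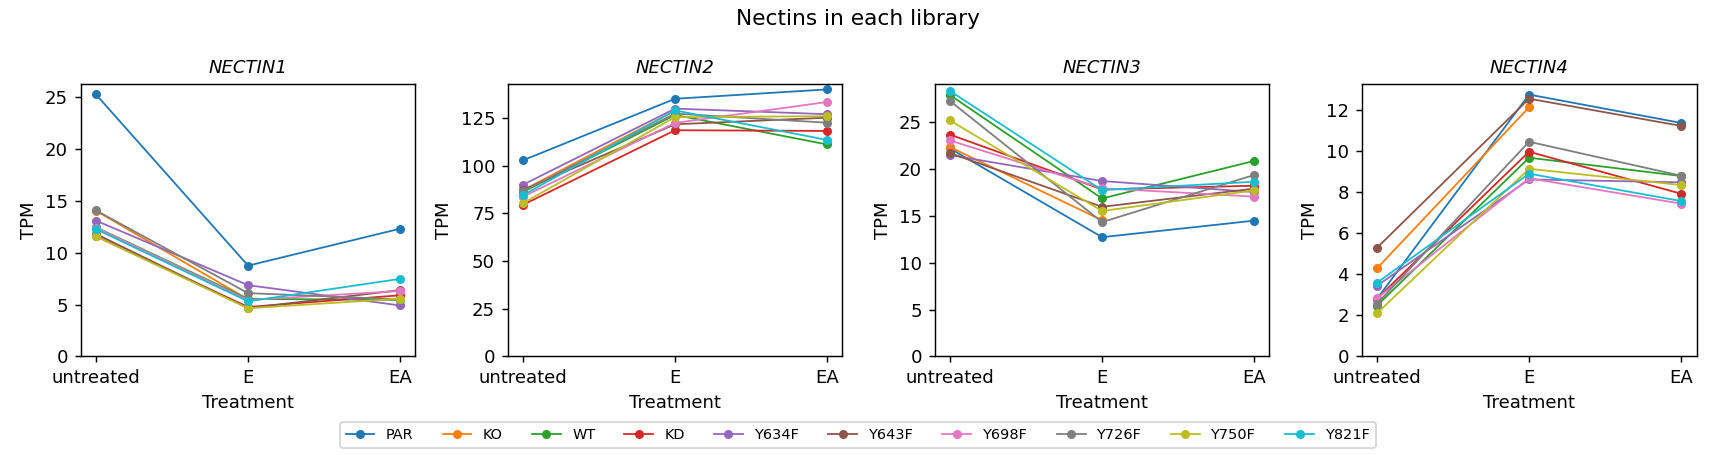
TPM of the 4 nectins by treatment, with 1 coloured line per cell line and a separate vertical scale for each gene. NECTIN2 and NECTIN4 climb and NECTIN1 and NECTIN3 drop in each line from untreated to E.

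Desmosomal genes rose apart from a pair of plakophilins. DSC2 (desmocollin 2) went from 6.77 to 9.71 TPM (median 8.02) to 13.8 to 18.9 TPM (median 15.6), with no overlap, and rose by 0.91 ± 0.07 (adjusted p = 1.0e-08). DSG2 (desmoglein 2), its adhesive partner, was more abundant and moved little, from a median of 58.9 to 63.5 TPM, a rise of 0.12 ± 0.04 (adjusted p = 0.014) in 9 of 10 lines. DSP (desmoplakin, the keratin anchor) went from 51.8 to 93.3 TPM (median 57.5) to 67.4 to 88.6 TPM (median 72.3) and rose by 0.29 ± 0.05 (adjusted p = 5.7e-05); it was higher in 9 lines and 0.07 lower in PAR. PERP, a membrane protein of desmosomes, rose from 59.4 to 89.4 TPM to 91.7 to 133 TPM with no overlap. PKP2 (plakophilin 2) went from 50.0 to 63.6 TPM (median 54.9) to 65.0 to 82.8 TPM (median 72.5), and PKP3 (plakophilin 3) from 65.8 to 97.0 TPM (median 76.5) to 47.6 to 63.9 TPM (median 54.2). PKP3 fell by 0.49 ± 0.04 (adjusted p = 4.3e-08) in 10 of 10 lines, so that the ratio of PKP2 to PKP3 went from 0.59 to 0.97 (median 0.71) to 1.12 to 1.74 (median 1.31). PKP4, a p120-catenin relative found at both adherens junctions and desmosomes, fell by 0.15 ± 0.06 (adjusted p = 0.035) in 7 of 10 lines. That call was lost with the library medians centred (adjusted p = 0.11), with quantile normalization (0.19), without the filter on low values (0.085) and when any of 6 lines, PAR among them (adjusted p = 0.078), was left out.

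Of the tight junction genes, the scaffold TJP3 (ZO-3; chr19:3708109-3750813) showed the largest rise of the 36. It went from 9.17 to 18.1 TPM (median 11.4) to 27.5 to 41.9 TPM (median 31.6), with no overlap, and rose by 1.40 ± 0.09 (adjusted p = 1.1e-09). TJP1 (ZO-1) rose from 49.2 to 66.3 TPM (median 53.1) to 68.9 to 85.9 TPM (median 76.9), by 0.50 ± 0.05 (adjusted p = 2.4e-07), and CGN (cingulin, which links ZO proteins to actomyosin) from 12.3 to 18.1 TPM (median 13.4) to 19.9 to 34.5 TPM (median 29.7), by 0.98 ± 0.08 (adjusted p = 4.7e-08). CGN is the gene whose window holds the GRHL match. Its lowest E value was that of PAR, where it changed by 0.36. The claudins form the seal itself, and their changes were unequal. CLDN3 and CLDN4, neighbours on chromosome 7 that are read in opposite directions with 29271 bases between them, rose by 1.02 ± 0.06 (adjusted p = 9.2e-10) and 0.97 ± 0.04 (adjusted p = 2.8e-11). CLDN3 went from 12.9 to 16.8 TPM to 25.5 to 35.3 TPM, and CLDN4 from 199 to 303 TPM (median 230.2) to 428 to 602 TPM (median 436). CLDN7, the most abundant claudin before treatment, moved from 346 to 440 TPM (median 397) to 393 to 482 TPM (median 464), and its median share of the 6 listed claudins went from 57.7% to 45.9% while that of CLDN4 went from 33.1% to 45.1%. CLDN1 rose from a median of 13.1 to 19.5 TPM in 9 lines and was 0.50 lower in PAR, and CLDN12 stayed between 32.0 and 51.6 TPM untreated and 34.2 and 44.7 TPM with E. CLDN2 reached at most 0.10 TPM in any library.

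OCLN (occludin) went from 9.91 to 15.4 TPM (median 11.04) to 13.5 to 22.0 TPM (median 16.4) and rose by 0.47 ± 0.09 (adjusted p = 0.00017). This value is uncertain because the genome holds a near-identical partial copy of the gene and because only 51.0% of its TPM untreated and 44.1% with E came from protein-coding transcripts. MARVELD2 (tricellulin), a relative of OCLN with 47961 bases between the genes, showed no such change, at 9.43 to 13.4 TPM untreated and 7.71 to 12.1 TPM with E. F11R (JAM-A, an immunoglobulin-type adhesion protein) rose from a median of 68.7 to 81.9 TPM in 10 of 10 lines. EPCAM, an epithelial adhesion protein that binds CLDN7, was among the most abundant of the 47 and went down, from 385 to 439 TPM (median 411) to 286 to 322 TPM (median 299). No library overlapped, and EPCAM fell by 0.44 ± 0.03 (adjusted p = 1.6e-09).

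Among the polarity genes, CRB3 (the Crumbs protein of epithelia) rose from 23.8 to 33.8 TPM (median 25.4) to 34.4 to 46.7 TPM (median 44.2), with no overlap. Its partners PATJ and PALS1 rose from medians of 23.9 to 34.8 TPM and of 33.5 to 38.0 TPM, in 10 and 8 of 10 lines, and LLGL2, a lateral membrane polarity protein, from 65.5 to 86.9 TPM in 10. PARD3 (PAR3), which recruits atypical protein kinase C to the junction, fell by 0.17 ± 0.04 (adjusted p = 0.0028) in 10 of 10 lines, and that kinase, PRKCI, had medians of 42.3 and 41.7 TPM. The remaining genes averaged under 10 TPM. GJB2 (connexin 26, a gap junction channel) had medians of 8.74 TPM untreated and 2.18 TPM with E with separate ranges, and MAGI3, a scaffold, medians of 6.57 and 4.18 TPM. PARD6B (PAR6B) had medians of 7.46 and 9.53 TPM, the scaffold MAGI1 of 6.44 and 9.81 TPM, CGNL1 (paracingulin) of 0.76 and 1.73 TPM and PKP1 of 1.53 and 1.67 TPM. GJA1 (connexin 43) and DSC3 (desmocollin 3) reached at most 0.73 and 0.22 TPM in any library.

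The make-up of the genes by transcript was compared as the share that each of their 3 most abundant transcripts held, 102 transcripts in all. Of these, 2 had shares that were apart between untreated and E libraries, where 1.61% of such transcripts of all tested genes did, and 11 moved the same way in all 10 lines, where 5.94% did. CLDN7-202 went from 12.7 to 20.6% of CLDN7 (median 16.5%) to 23.8 to 31.0% (median 28.1%), and CTNND1-230 from 17.3 to 22.1% of CTNND1 (median 19.0%) to 13.0 to 16.6% (median 14.8%). Both are protein-coding. Among those with overlapping ranges that moved in 10 of 10 lines, the median share of CLDN7-201 went from 66.1 to 54.4%, that of PATJ-203 from 21.8 to 30.6%, that of LLGL2-202 from 23.9 to 16.4% and that of TJP1-212 from 32.4 to 25.8%. All these shares are estimates from reads that transcripts of a gene share. Transcripts annotated as protein-coding held from 49.9 to 56.2% of the untreated TPM of PKP4, OCLN, CTNNA1, CDH3 and CLDN12 and a larger part of the other tested genes.

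Junction genes outside the 47 also rose more often than they fell, although these lists too were chosen with earlier results of these data known. Of 100 other listed genes 52 were tested, of which 28 rose and 10 fell with E (53.8% and 19.2%, beside 36.4% and 42.6% of all genes), with a median of 0.18. By structure, 8 of 14 adherens junction genes rose and 5 fell, 12 of 20 tight junction genes rose and 1 fell, 6 of 11 polarity genes rose and 2 fell, 1 of 3 desmosome genes rose, and of 4 gap junction genes 1 rose and 2 fell. Large changes among them were a fall of CTNNAL1 (an alpha-catenin relative), by 1.52 ± 0.06 from a median of 52.4 to 17.5 TPM, and rises of AJUBA (a LIM protein of adherens junctions) from 28.6 to 67.2 TPM and of PLEKHA7 (a p120-catenin partner) from 16.6 to 35.5 TPM. Of 11 tested regulators of epithelial identity 7 rose and 3 fell, led by ELF3, an epithelial transcription factor, from a median of 21.7 to 185 TPM, and GRHL2, a grainyhead-like factor, from 41.7 to 74.8 TPM. Of 10 tested mesenchymal genes 7 rose and 2 fell. Their median change was 0.68, larger than that of the 36 junction genes (0.40) and of the epithelial regulators (0.23). The 18 listed mesenchymal genes summed to 1272 to 1857 TPM untreated and 2229 to 3114 TPM with E. FN1 (fibronectin) went up from a median of 119 to 308 TPM, and VIM (vimentin) went down from 32.2 to 20.7 TPM. Of 6 tested lung epithelial markers 3 rose and 3 fell.

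PAR lay outside the range of the derived lines in a few junction genes, as it did in many other genes. It was above all other lines in each of the 3 treatments for 5 of the 36 genes (13.9%), DSP, PERP, NECTIN2, PKP3 and CLDN4. It was below them for 1 (2.78%), LLGL2. Across all genes 8.71% were above and 11.8% below. DSP was 93.3 TPM in untreated PAR against 51.8 to 65.3 TPM in the 9 other lines, and CLDN4 was 602 TPM in PAR with E against 428 to 530.1 TPM. PKP3 was 97.0, 63.9 and 70.7 TPM in PAR in the 3 treatments, against 65.8 to 83.7, 47.6 to 59.9 and 36.0 to 59.7 TPM. The median change of the 36 genes with E was lowest in PAR, at 0.20, against 0.24 to 0.49 in the other lines, but the median of all genes was also lowest there, at -0.16 against -0.06 to 0.02. PAR is 1 library per treatment, and it is also the line without knockout, transduction and sorting, so these cannot be told apart.

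Averaged over the lines, activation of AXL on top of E moved junction transcripts little, and genes as a whole little too. Single lines could move more, as PKP3 did in Y821F, by -0.72. So few genes were called that a count of 0 among 36 does not set junction genes apart. The paper reports that E alone already activates AXL, and that most cells of the transduced lines lack it. What part either has in the small steps seen here was not tested. None of the 36 genes passed in the 8 lines other than KO and KD (EA against E, limma with line as a block), where 2.36% of all genes did, and 6 had an unadjusted p under 0.05, against 20.9% of all genes (16.7% of the 36). That background rests on single lines and on the pairing, since the 214 genes called became 10 without Y634F, 18 without Y643F, 55 without PAR or without Y698F, 76 without Y750F, 94 without Y821F, 131 without WT and 188 without Y726F, and 9 without the block, with none of the 36 among them in any case. The median change of the 36 was 0.03, beside 0.02 over all genes. DSG2 had the smallest p, at 0.13 ± 0.04 (adjusted p = 0.094), higher in 7 of 8 lines. CLDN4 was lower in 7 of 8, at -0.11 ± 0.04 (adjusted p = 0.13), CRB3 lower in 7 of 8, at -0.16 ± 0.06 (adjusted p = 0.16), and PARD3, CTNNB1 and TJP1 were higher in 6 of 8, at 0.14 ± 0.05, 0.12 ± 0.05 and 0.12 ± 0.05 (adjusted p = 0.15, 0.18 and 0.23). CDH1 was 0.12 ± 0.06 higher with EA (adjusted p = 0.30, 95% interval -0.02 to 0.26), and it was lower in WT by 0.15, in Y726F by 0.11 and in Y634F by 0.04. KD, whose AXL has no kinase activity, stood outside that test. Its median over the 36 was 0.01, and its DSG2, CLDN4 and CRB3 differences were 0.16, -0.09 and -0.38. Of the 52 other junction genes tested 1 passed, IQGAP1 (a cadherin-linked scaffold), at 0.20 ± 0.04 (adjusted p = 0.038). It passed in 4 of 17 other settings and lines left out, with adjusted p from 0.025 to 0.23.

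**Figure D4:**
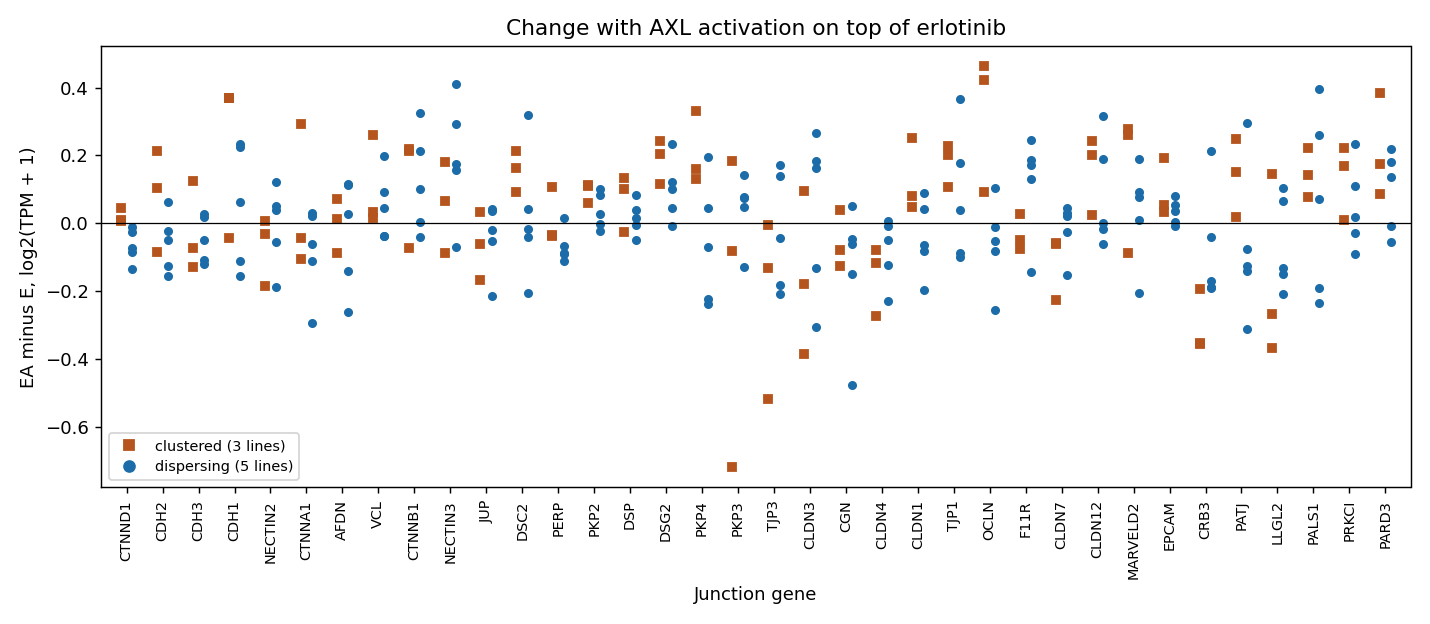
EA minus E in log2(TPM + 1) for the 36 tested genes, with squares for the 3 clustered lines and circles for the 5 dispersing lines. Points of both groups scatter around 0 and overlap for all genes but CTNND1 and CRB3.

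The step from E to EA was then compared between the clustered and the dispersing lines, to ask whether junction transcripts follow the islands. No gene of the 9085 passed, 0% of all genes and none of the 36, and 533 genes had an unadjusted p under 0.05, among them 2 of the 36. OCLN changed by 0.09, 0.42 and 0.46 in Y634F, Y750F and Y821F and by -0.05, -0.25, 0.10, -0.08 and -0.01 in PAR, WT, Y643F, Y698F and Y726F. Its difference was 0.38 ± 0.13 (adjusted p = 0.80, 95% interval 0.10 to 0.67), and the groups overlapped. PKP4 changed by 0.13, 0.16 and 0.33 in the clustered lines and by 0.19, -0.22, -0.07, -0.24 and 0.05 in the dispersing lines in the same order, a difference of 0.27 ± 0.12 (adjusted p = 0.80). CRB3 changed by -0.35, -0.19 and -0.35 against 0.21, -0.19, -0.04, -0.17 and -0.19, a difference of -0.22 ± 0.11 (adjusted p = 0.80). The groups were apart by 0.0035 for CRB3 and by 0.016 for CTNND1, 2 of 36 genes where 3.96% of all genes were apart. By line, the median step of the 36 was 0.01, 0.10 and 0.07 in Y634F, Y750F and Y821F and between -0.03 and 0.04 in the dispersing lines. The medians of all genes were 0.02, 0.04 and -0.01 in the former and between -0.0031 and 0.047 in the latter. The number of the 36 that were higher with EA was 19, 28 and 22 in the former and 14 to 21 in the latter. The same counts over all genes were not taken, so these have no background to be read against.

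Levels were compared in the same way within each treatment, and again 0% of all genes and none of the 36 passed in any of the 3. In the untreated libraries 30 of the 36 genes were on average lower in the clustered lines, with a median of -0.09 beside -0.04 for all genes, of which 60.4% were lower there. With the library medians centred 26 were lower, with a median of -0.05 (0.01 for all genes, of which 47.9% were lower). Without Y750F 28 were lower, with a median of -0.05 (-0.02 for all genes, of which 55.5% were lower). CDH1 was 72.8, 60.8 and 75.9 TPM in Y634F, Y750F and Y821F and 92.4, 91.3, 92.9, 84.1 and 82.2 TPM in PAR, WT, Y643F, Y698F and Y726F. These groups did not overlap, and the difference was -0.34 ± 0.09 (p = 0.0026 unadjusted, limma adjusted p = 0.73). DSG2 differed by -0.27 ± 0.10 and DSP by -0.32 ± 0.14 (both adjusted p = 0.73), and for DSP the groups were apart. Before treatment 5 of the 36 genes had ranges apart, where 6.3% of all genes did: CDH1, CTNND1, DSP and CLDN1 lower and CRB3 higher in the clustered lines. With E none of the 36 was apart, where 2% of all genes were, and the smallest p values belonged to MARVELD2, CDH1 and OCLN (differences of -0.25, -0.15 and -0.19, each with an adjusted p of 0.999). With EA 2 of the 36 were apart, where 2.78% of all genes were. PKP4 was 47.8, 42.8 and 49.0 TPM in the clustered lines and 33.1, 37.1, 36.8, 35.4 and 35.1 TPM in the dispersing lines, a difference of 0.38 ± 0.09 (p = 0.0013 unadjusted, limma adjusted p = 0.97). CRB3 was 36.4, 34.6 and 31.2 TPM against 40.0, 40.2, 38.0, 39.6 and 39.3 TPM (-0.21 ± 0.09, adjusted p = 0.97). Its order before treatment was the reverse, but there the groups were barely apart, at 25.41 to 28.45 against 23.81 to 25.39 TPM. PKP3 differed by -0.28 ± 0.16 (adjusted p = 0.97). The PKP3 difference was -0.08 without Y821F, which had 36.0 TPM against 50.6 and 59.7 TPM in the other clustered lines, and -0.43 without Y750F. CDH1 with EA was 139, 146 and 150 TPM in the clustered lines and 173, 126, 169, 139 and 114 TPM in the dispersing lines, so that the groups overlapped at the treatment at which the islands were told apart.

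**Figure D5:**
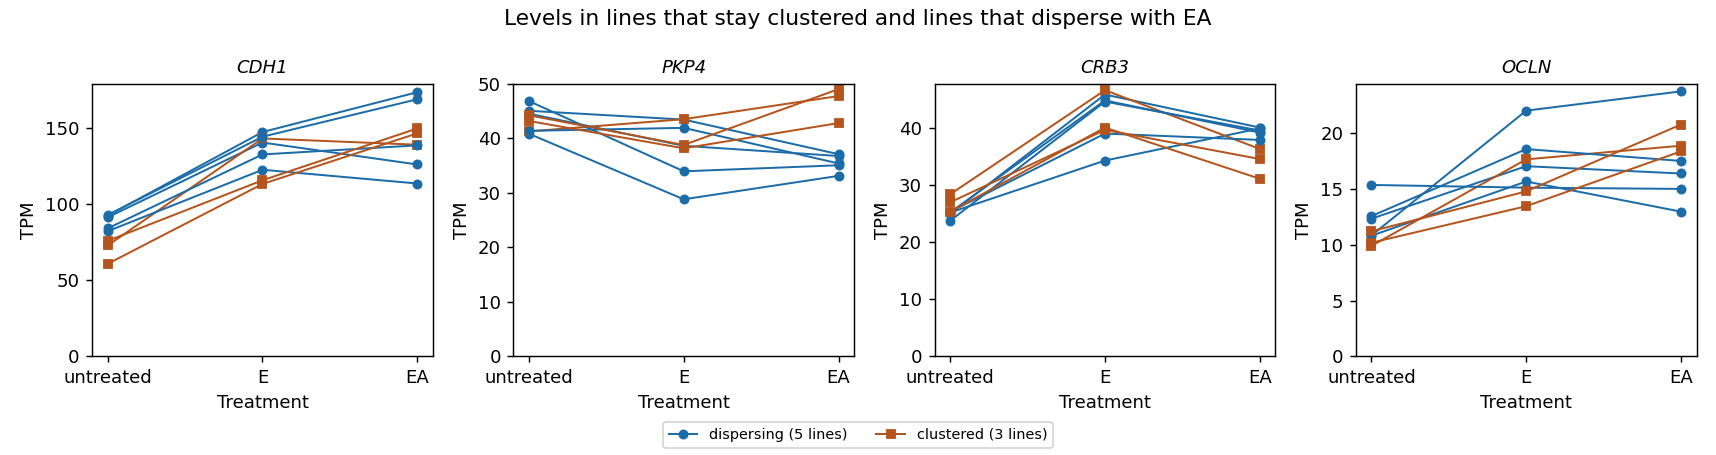
TPM of CDH1, PKP4, CRB3 and OCLN by treatment, with squares for the 3 clustered lines and circles for the 5 dispersing lines. The clustered lines lie lowest for CDH1 before treatment, above the others for PKP4 with EA (42.8 to 49.0 against 33.1 to 37.1 TPM) and below them for CRB3 with EA.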

How the data were processed

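RNA was extracted with RNeasy from 300000 seeded cells per dish and sequenced as polyA libraries. The authors deposited TPM per transcript (Ensembl identifiers), made with kallisto against GRCh38 per the submitters' processing notes, versions not given in the sources used here. TPM removes depth and makes values within a library relative. Of 188753 transcripts, 169797 matched GENCODE 29 (97.0 to 97.4% of TPM per library) and were summed into 35579 genes, and the other 18956 were left out. Those averaging 10 TPM or more over all libraries entered limma 3.58.1 (R 4.3.3; log2(TPM + 1), trended variance, Benjamini-Hochberg 0.05). The treatment comparisons had line as a block, since the same cell line gave each pair, so p-values measure the spread between lines. All lines but PAR derive from the same knockout cells, so this is a spread between related lines of PC9, not between independent cell lines. The island groups come from the study's imaging. The labels name no batch. Fits were tested on simulated data. Members and lists were chosen with earlier results of these data known. Named were 9 preset genes, the 10 largest rises and falls past the threshold with E, members with an unadjusted p under 0.05 or the 3 smallest p elsewhere, and at most 4 genes per other list. Some genes of the other lists are not reported here.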

Additional observations from a re-analysis of the deposited data

Results flagged for a closer look

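Among 85 sets of 8 to 10 lines examined for the genes named above, 7 had 1 line set far apart from the others by its gap to them. In 6 of these it was PAR. Chance gives about 1 in 20, or 4.25 sets, if the sets are independent. They are not, because they share libraries and genes and some genes were picked from these data, so the count cannot be measured against that rate. The change of CDH2 with E was 0.16 in PAR and 0.68 to 1.04 in the other lines. The change of CDH3 with E was 0.47 in Y634F and 0.66 to 0.84 elsewhere. DSP in PAR was 93.3 TPM untreated (others 51.8 to 65.3), 88.6 TPM with E (67.4 to 75.9) and 91.1 TPM with EA (69.8 to 79.3). CGN with E was 19.9 TPM in PAR and 27.2 to 34.5 TPM elsewhere, and CLDN4 with EA was 582 TPM in PAR and 361 to 431 TPM elsewhere. The step from E to EA in CTNND1 had opposite signs in the island groups, with a mean of 0.020 in the 3 clustered lines and -0.065 in the 5 dispersing lines. Its difference did not pass (0.08 ± 0.06, limma adjusted p = 0.82).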

How the results depend on the processing

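With E, 22 to 32 members rose and 5 to 9 fell over 9 other settings, among them 0.1 TPM as pseudocount, other filters, centred medians, quantile normalization and, chosen after seeing the data, protein-coding transcripts only (26 and 7). Leaving out 1 line gave 27 rises throughout and 5 to 6 falls. Without the line as a block 26 rose and 6 fell, and without it 9 of 9085 genes passed for EA against E, rather than 214. In the other comparisons 0 members passed under each setting run, without the pairing and with each line left out, but the genes called for EA against E ranged from 6 with no filter (67 with a minimum mean of 1 TPM, 120 with KD included) to 361 with protein-coding transcripts only. Of the named members, PKP4 alone lost its call with E, and none changed sign. PAR lay above all other lines in 8 members with centred medians (921 of 9085 genes) and 8 with quantile normalization (983), beside 791 genes in the main setting. It lay below in 2 members with quantile normalization (903 of 9085), with a minimum mean of 1 TPM (1384 of 14111) or with no filter (1453 of 26628). Leaving out a line gave 5 to 7 members above and 1 to 2 below (2 without KO, KD or Y821F). Over all genes it gave 799 to 883 above and 1088 to 1159 below. Without PAR, 18 members rather than 14 had E ranges wholly above the untreated ones, and 1869 rather than 1353 of 9085 genes did. With 1 library per line and treatment and 3 clustered lines, standard errors of the island differences had a median of 0.11 (0.05 for EA against E), which bounds the size of difference that these lines can resolve.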
